A study of Mus musculus with 12 samples.

Results

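The genes described are 6 enzymes of gluconeogenesis and fructose metabolism, Pck1, G6pc, Fbp1, Fbp2, Pcx and Khk, taken by symbol from a table of 22276 gene symbols and followed through all 12 libraries of the study. RNA was sequenced from white (WAT) and brown (BAT) adipose tissue, liver and quadriceps muscle of male C57BL/6J mice aged 17 wk. The NCD-veh mice ate normal chow and received vehicle. The HFD-veh mice ate a high-fat diet from the age of 8 wk and received vehicle, and the HFD-ncls mice ate the same diet and received narciclasine (ncls), a plant alkaloid, from the age of 10 wk. The labels name no transgene or deletion. Each of the 4 organs has 1 library per group, the number of mice behind a library is not given in the sources used here, and nothing measures how animals of a group vary, so all comparisons are descriptions without a test. Values are FPKM, fragments scaled to the exon length of the gene and to the mapped total of the library, so levels of different genes are compared per length. Differences between libraries are on the log2(FPKM + 0.1) scale and were counted as past 2-fold only for genes with at least 1 FPKM in either library.

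Gluconeogenesis makes glucose from lactate, glycerol and amino acids and runs mainly in the liver and the kidney. Pyruvate carboxylase (Pcx) turns pyruvate into oxaloacetate in mitochondria, and cytosolic phosphoenolpyruvate carboxykinase (Pck1) turns oxaloacetate into phosphoenolpyruvate. Fructose-1,6-bisphosphatase, encoded by Fbp1 in liver and Fbp2 in muscle, and the catalytic subunit of glucose-6-phosphatase (G6pc) remove phosphate further up the pathway, and the last of these steps releases free glucose. In fat cells Pck1 and Pcx serve glyceroneogenesis, which makes the glycerol backbone of stored triglyceride. Ketohexokinase (Khk) phosphorylates fructose, whose carbon then joins the same triose pool. Hormones act on these genes at their promoters, where cyclic AMP signalling raises Pck1 and G6pc in fasting and insulin lowers them.

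On mm9, the build of the deposited values, GENCODE places Pck1 at chr2:172978549-172984774 on the plus strand, G6pc at chr11:101228875-101239217 on the plus strand, Pcx at chr19:4510472-4621752 on the plus strand and Khk at chr5:31223929-31233619 on the plus strand. Fbp1 (chr13:62966113-62989642) and Fbp2 (chr13:62938244-62959760) are neighbours on the minus strand of chromosome 13, with 6352 bases between them. All are protein-coding genes. Gm17367 overlaps Fbp1 and Lrfn4 overlaps Pcx on the opposite strand, and whether the quantification used strand is not given in the sources used here. Khk makes the splice forms A and C, which a value per gene does not separate.

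The promoters of the genes whose levels differed most between organs are given here, since their organ patterns are the main contrast in the values. Each run is the 250 bases before the gene's start in RefSeq (GRCm38.p6, a later build than that of the values), 5′ to 3′ on the gene's own strand. Capitals mark matches, searched on either strand, to 4 short motifs. The first, CGTCA, is the core of a cyclic AMP response element, through which fasting hormones act. The second is the E-box CACGTG, a core that carbohydrate response and clock factors bind. The third is the TATA box, searched as TATAAA, which places the start of transcription. The last is part of the site of the liver factor HNF1, searched as GTTAAT, and a match on the other strand reads ATTAAC here.
Pck1: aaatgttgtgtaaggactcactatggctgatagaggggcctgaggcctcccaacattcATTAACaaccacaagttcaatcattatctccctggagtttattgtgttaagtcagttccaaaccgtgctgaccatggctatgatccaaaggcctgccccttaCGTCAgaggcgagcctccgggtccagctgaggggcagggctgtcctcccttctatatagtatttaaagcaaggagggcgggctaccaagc
G6pc: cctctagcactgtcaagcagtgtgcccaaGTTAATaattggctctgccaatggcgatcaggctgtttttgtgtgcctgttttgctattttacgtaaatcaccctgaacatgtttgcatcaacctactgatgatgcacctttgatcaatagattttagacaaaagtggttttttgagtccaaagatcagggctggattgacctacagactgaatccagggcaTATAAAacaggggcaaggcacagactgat
Fbp1: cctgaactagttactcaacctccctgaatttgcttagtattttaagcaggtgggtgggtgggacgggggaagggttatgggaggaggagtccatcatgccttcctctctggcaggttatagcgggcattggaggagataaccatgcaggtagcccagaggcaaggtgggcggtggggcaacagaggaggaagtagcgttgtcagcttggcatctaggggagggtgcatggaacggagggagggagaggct
Fbp2: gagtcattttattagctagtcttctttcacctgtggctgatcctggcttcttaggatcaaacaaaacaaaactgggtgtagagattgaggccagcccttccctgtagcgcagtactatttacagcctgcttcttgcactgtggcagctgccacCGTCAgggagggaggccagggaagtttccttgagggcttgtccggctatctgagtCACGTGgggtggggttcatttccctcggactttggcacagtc
Khk: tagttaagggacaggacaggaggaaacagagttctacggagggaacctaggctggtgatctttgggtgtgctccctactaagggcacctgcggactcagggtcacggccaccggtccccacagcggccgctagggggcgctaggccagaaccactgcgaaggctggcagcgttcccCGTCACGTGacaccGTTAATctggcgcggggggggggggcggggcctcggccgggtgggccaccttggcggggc
These windows lie at chr2:173152823-173153072 on the plus strand (Pck1), chr11:101367466-101367715 on the plus strand (G6pc), chr13:62888283-62888532 on the minus strand (Fbp1), chr13:62858401-62858650 on the minus strand (Fbp2) and chr5:30921309-30921558 on the plus strand (Khk). Pck1 has CGTCA from 90 to 86 bases before its start and ATTAAC from 192 to 187. G6pc has TATAAA from 29 to 24 and GTTAAT from 221 to 216. Fbp2 has CGTCA from 97 to 93 and CACGTG from 42 to 37. In Khk, CGTCA (74 to 70) overlaps CACGTG (71 to 66), and GTTAAT lies from 60 to 55. No match to these letters lies in the Fbp1 window. Among 32851 RefSeq promoters of this length, 17.8% hold CGTCA, 6.02% CACGTG, 12.4% TATAAA and 6.43% GTTAAT on either strand, so each match is a description of the letters and not a site of action.

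The libraries held about 19000000 to 26900000 fragments, as estimated from the steps between low FPKM values, and 9130 to 12052 genes at 1 FPKM or more. The summed level of each organ's own marker list was high in its libraries. The summed level of 20 liver markers was 56113 to 63799 FPKM in liver, that of 12 muscle markers with a value was 116823 to 122502 FPKM in muscle, that of 9 adipocyte markers was 18617 to 28710 FPKM in WAT, and that of 5 brown fat markers was 3845 to 4255 FPKM in BAT. The brown fat list is not specific to BAT, since it also summed to 664 to 749 FPKM in muscle. Of its genes, Dio2 was at only 1.32 and 1.62 FPKM in NCD-veh and HFD-veh BAT. HFD-veh muscle and, at a lower level, the WAT libraries of both HFD groups stood apart by holding liver transcripts. The 20 liver markers summed to 346 FPKM in HFD-veh muscle against 1.75 in NCD-veh and 0.855 in HFD-ncls muscle, and in WAT to 3.19 FPKM on chow, 37.3 in HFD-veh and 139 in HFD-ncls mice. None of the 20 was at 0 in HFD-veh muscle or in either of these HFD WAT libraries, while 6 and 9 were at 0 in the other muscle libraries and 11 in NCD-veh WAT. Results in muscle and WAT are therefore given beside these markers.

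Across organs, the 6 genes fell into 4 patterns. G6pc, Fbp1 and Khk were liver genes, Fbp2 was highest in muscle and second in BAT, Pck1 was abundant in liver and both fats, and Pcx was highest in WAT. In 3 of the 6 genes (G6pc, Fbp1 and Khk) the lowest liver value was above every value of the other organs, which held for 12.2% of all genes with at least 1 FPKM in any library. These genes were chosen with their organ pattern known, so this count describes them and tests nothing.

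**Figure D1:**
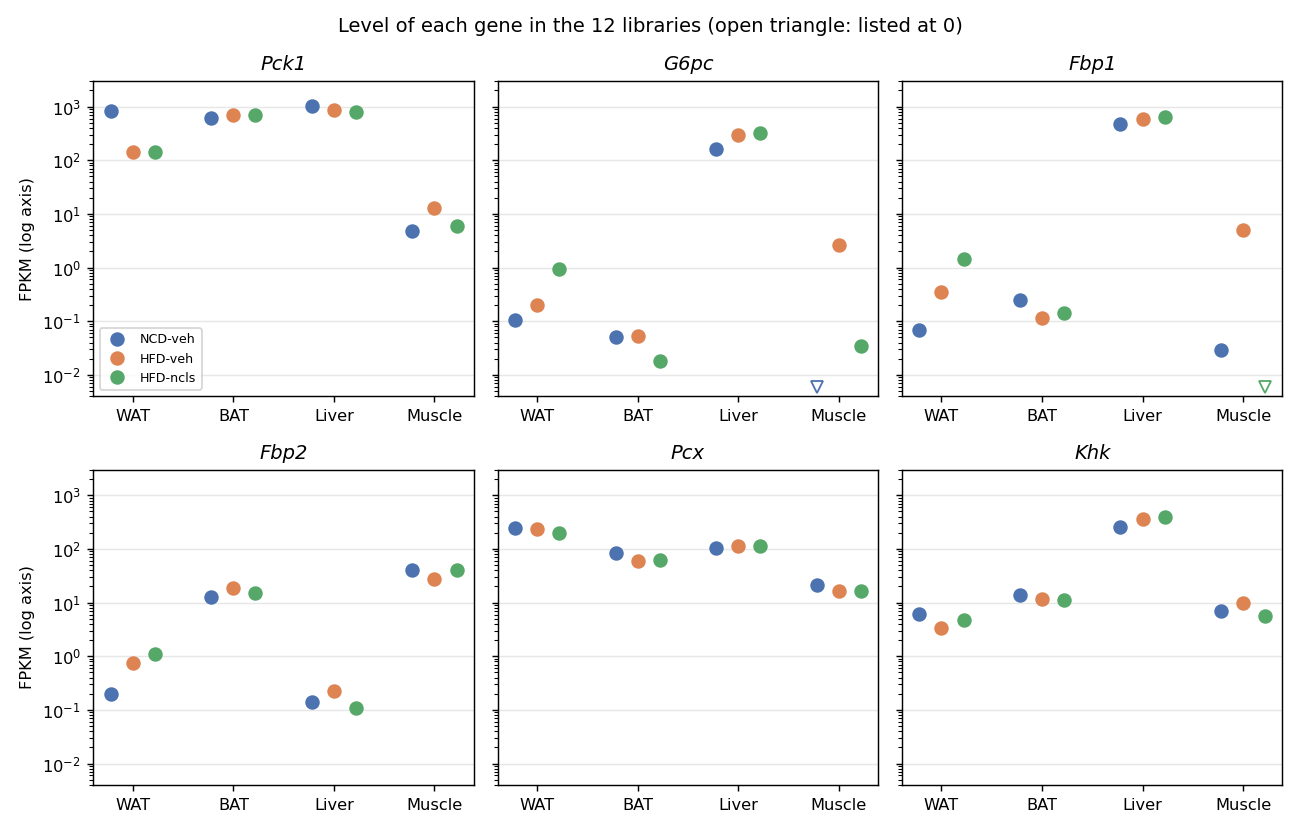
FPKM (log axis) of each gene in every library, by organ on the horizontal axis and by group in colour, with 1 point per library and no error bars because no group has replicates. G6pc, Fbp1 and Khk stand highest in liver, Fbp2 in muscle and Pcx in WAT, while Pck1 in WAT stands at 836 FPKM on chow and at 141 and 146 in the HFD groups.

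Of the entry enzymes, Pcx was found at substantial levels in all organs. Its level in WAT was 245 FPKM for NCD-veh, 240 for HFD-veh and 200 for HFD-ncls. In liver it was 105, 113 and 112 FPKM in the same order, in BAT 84.0, 60.4 and 62.3, and in muscle 21.7, 16.6 and 16.5. The ranges of the 4 organs did not overlap, with WAT above liver, liver above BAT and BAT above muscle, and the median in WAT was 2.15 times that in liver.

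Pck1 reached its highest levels in liver, with 1048 FPKM for NCD-veh, 850 for HFD-veh and 798 for HFD-ncls. In BAT it was nearly as abundant, at 605, 684 and 694 FPKM. WAT held 836 FPKM in NCD-veh but 141 and 146 in HFD-veh and HFD-ncls mice, and muscle held 4.89, 12.6 and 5.89. All liver values were above all BAT values, by 1.24 times at the median, and the single WAT library of the chow group lay within the range of liver. In NCD-veh WAT Pck1 ranked 38th among all genes by FPKM, higher than its rank of 71 in NCD-veh liver. The mitochondrial isozyme Pck2 was low everywhere, and Pck1 made up 90.4% to 99.9% of their summed FPKM.

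The 2 fructose-1,6-bisphosphatases divided the organs between them. Fbp1, the liver form, was at 471 FPKM in chow-fed liver and at 591 and 642 in the livers of HFD-veh and HFD-ncls mice. In WAT it was 0.0687, 0.353 and 1.47 FPKM, in BAT 0.247, 0.115 and 0.144, and in muscle 0.0288 and 4.94 in NCD-veh and HFD-veh mice, while it was listed at 0 in HFD-ncls muscle. Liver stood far above the rest, with a median 1673 times that of WAT, the next organ by median. The WAT libraries of both HFD groups hold liver transcripts, and with the liver share subtracted Fbp1 is at 0 in each. In NCD-veh mice WAT (0.0687) was below BAT (0.247).

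Fbp2, the muscle form, showed the reverse order. In the same order of groups it was at 39.9, 27.1 and 40.9 FPKM in muscle, at 12.7, 18.5 and 15.0 in BAT, at 0.201, 0.744 and 1.09 in WAT and at 0.143, 0.224 and 0.108 in liver. Muscle lay above BAT without overlap, by 2.65 times at the median, and BAT above WAT, whereas WAT and liver overlapped. Fbp2 made up 98.1% to 99.4% of the summed FPKM of both genes in BAT, 84.5% to 100% in muscle and 0.0168% to 0.0380% in liver. The lowest muscle share, 84.5% in HFD-veh, belongs to the library that holds liver transcripts.

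The Fbp2 level in BAT did not follow the muscle markers there. The 12 muscle markers in BAT had medians of 1.97%, 0.791% and 0.114% of their levels in the muscle of the same group (NCD-veh first, HFD-ncls last), and the list of 13 summed to 2602, 1055 and 188 FPKM. Fbp2 in BAT was 31.9%, 68.3% and 36.7% of its level in muscle in the same libraries. Even the highest of the 12 markers reached only 5.32%, 1.72% and 0.586% of muscle, so Fbp2 was present in BAT at a far larger share of its muscle level than any marker on the list.

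G6pc was at 161 FPKM in chow-fed liver and at 295 and 323 in the livers of HFD-veh and HFD-ncls mice. Elsewhere it stayed under 1 FPKM except in HFD-veh muscle. WAT held 0.107, 0.199 and 0.921 FPKM and BAT 0.0515, 0.0538 and 0.0180, which in BAT is about 3.12, 3.26 and 1.09 fragments. In muscle it was listed at 0 in NCD-veh, at 2.68 FPKM in HFD-veh (about 174 fragments) and at 0.0349 in HFD-ncls (about 2.11 fragments). The related G6pc3, the ubiquitous glucose-6-phosphatase subunit, was at 3.77 to 6.04 FPKM in liver and at 21.7 to 32.7 FPKM in the other organs. G6pc made up 97.0% to 98.7% of the summed FPKM of both genes in liver and at most 7.87% outside it, in HFD-veh muscle.

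Khk was at 257 FPKM in chow-fed liver and at 366 and 399 in the livers of HFD-veh and HFD-ncls mice. It differed from G6pc and Fbp1 in being measurable in every other library too, at 13.7, 11.6 and 11.2 FPKM in BAT, 6.97, 9.67 and 5.55 in muscle and 6.26, 3.30 and 4.72 in WAT. The liver median was 31.6 times that of BAT, BAT lay above muscle without overlap, and the ranges of muscle and WAT overlapped.

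**Figure D2:**
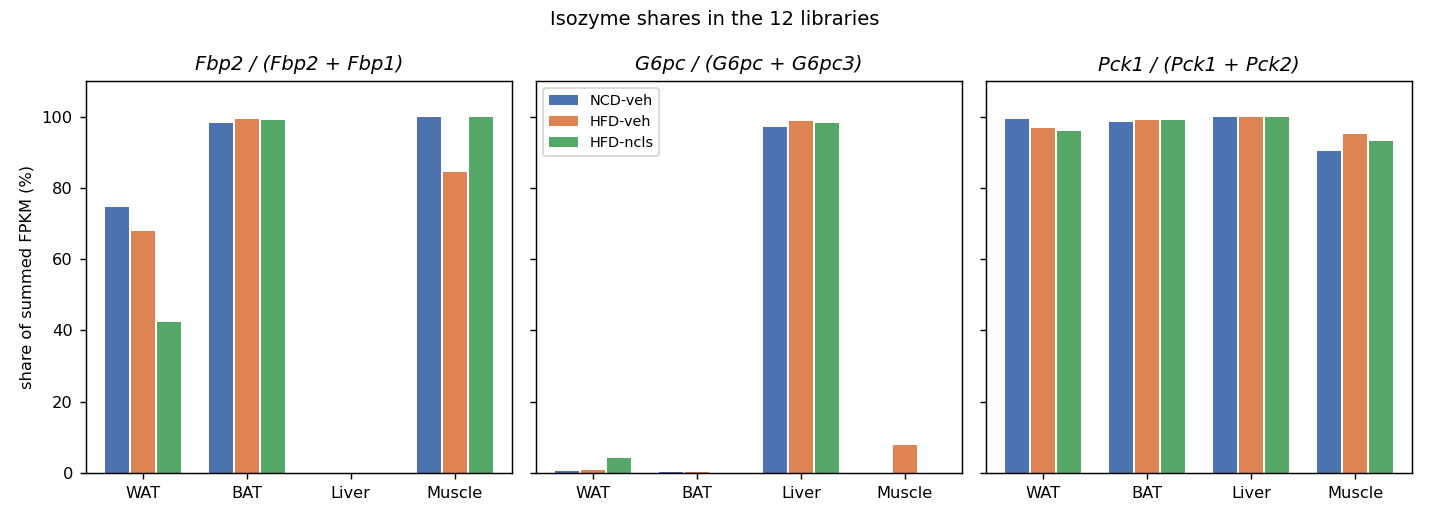
Share (%) of the summed FPKM of a pair of isozymes that came from the gene named first, as bars by organ and group, 1 library each. Fbp2 makes up nearly all of the fructose-1,6-bisphosphatase FPKM in BAT and muscle and under 0.1% in liver, where the bars cannot be seen, while G6pc dominates its pair in liver alone and Pck1 in every organ.

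The coding sequences of these pairs were compared for shared stretches. Those of Fbp1 and Fbp2 were 70.5% identical with a longest shared run of 23 bases. For Pck1 and Pck2 the values were 70.9% and 17 bases, and for G6pc and G6pc3 59.3% and 13 bases. Untranslated parts were not compared, and whether reads were shared between the genes of a pair was not tested.

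The first comparison sets HFD-veh against NCD-veh mice and asks what the diet changed in each organ. Of the 24 combinations of gene and organ, 18 had at least 1 FPKM in either library. In 3 of them the level was over 2-fold higher in HFD-veh mice (Pck1, G6pc and Fbp1, all in muscle) and in 1 it was over 2-fold lower (Pck1 in WAT). Among all genes measured, 9.11% were past 2-fold in either direction in WAT, 4.29% in BAT, 5.12% in liver and 4.11% in muscle.

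In WAT, Pck1 was 5.93-fold lower in HFD-veh than in NCD-veh mice, a log2 difference of -2.57, and its rank among all genes went from 38 to 363. Pcx, the other enzyme of glyceroneogenesis among the 6, was nearly level at -0.03, so the ratio of Pck1 to Pcx went from 3.41 to 0.587. The adipocyte markers summed to 28710 FPKM in NCD-veh and 20222 in HFD-veh WAT (the adipokine Cfd alone was at 8163 and 653) and 6 macrophage markers to 626 and 885 FPKM. Of the 9 adipocyte markers, 1 was over 2-fold higher in HFD-veh WAT (Lep, at 300 and 1199 FPKM) and 1 lower (Cfd), with a median log2 difference of -0.25. Relative to adiponectin (Adipoq), a gene of mature fat cells, Pck1 was 0.294 in NCD-veh and 0.0834 in HFD-veh WAT, so the ratio was lower as well. Adipoq itself was at 2849 and 1692 FPKM. In bulk tissue, fewer cells of a type and less RNA per cell cannot be told apart. Khk was lower in HFD-veh WAT by 0.90 on the log2 scale, short of 2-fold.

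Among 9 genes listed as partners of glyceroneogenesis in WAT, none was over 2-fold lower with Pck1. The list is mixed and also holds the lipases Lipe and Pnpla2 and the genes Pdk4 and Aqp7. All 9 were measured, 2 were over 2-fold higher in HFD-veh WAT, and the median log2 difference was 0.20 against 0.03 over all genes. Glycerol-3-phosphate dehydrogenase (Gpd1), which makes glycerol 3-phosphate from a glycolytic intermediate, was at 234 FPKM in NCD-veh and 553 in HFD-veh WAT, and glycerol kinase (Gyk) at 1.45 and 4.08. Lower within 2-fold were hormone-sensitive lipase (Lipe) at 652 and 551 FPKM, the lipase Pnpla2 at 851 and 678, and Gpam, which adds the first acyl chain to glycerol 3-phosphate, at 55.6 and 36.6. Among all 69 other pathway genes, 59 were measured in WAT, 6 were over 2-fold higher (Glyctk, Gpd1, Gyk, Slc25a10, Slc25a13 and Tpi1) and 1 was lower (the mitochondrial glycerol-3-phosphate dehydrogenase Gpd2, at 14.6 and 7.15 FPKM).

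In liver no gene of the 6 passed 2-fold under the diet. G6pc was 1.84-fold higher in HFD-veh mice (log2 difference 0.88), Khk 1.42-fold higher (0.51) and Fbp1 higher by 0.33, while Pck1 was lower by 0.30 and Pcx higher by 0.11. Fbp2 stayed under 1 FPKM in both. The release step and the fructose step thus had higher levels and the entry step catalysed by Pck1 a slightly lower one in the HFD-veh liver, all within 2-fold. Muscle markers summed to 81.7 FPKM in HFD-veh liver against 2.18 in NCD-veh liver, at a median of 0.0626% of muscle, and Fbp2 was not among the genes past 1 FPKM there.

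Larger differences in HFD-veh liver were found in the lists of opposing glycolytic steps and of fructose genes. Not every gene of the first list works against gluconeogenesis. It includes Pdk4, which holds pyruvate back from oxidation, at 2.81 FPKM in NCD-veh and 1.94 in HFD-veh liver. Of 8 measured genes of the opposing glycolytic steps, 2 were over 2-fold higher and none lower, with a median log2 difference of 0.62 against 0.04 over all genes. Liver pyruvate kinase (Pklr), which undoes the combined work of Pcx and Pck1, was at 27.4 FPKM in NCD-veh and 119 in HFD-veh liver, and Pfkfb3 at 1.41 and 2.94. Of 5 measured fructose genes, 3 were over 2-fold higher with a median of 1.05. These were the fructose transporter Slc2a5 at 1.05 and 3.43 FPKM, the glucose and fructose transporter Slc2a2 at 61.0 and 133, and Dak, which phosphorylates the glyceraldehyde that fructose yields, at 107 and 222.

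Of the 18 regulators, 3 were over 2-fold higher in HFD-veh liver and none lower, with a median log2 difference of 0.10. The lipogenic factor Srebf1 was at 13.3 FPKM in NCD-veh and 69.9 in HFD-veh mice, Pparg at 2.81 and 7.47, and Igfbp1, a secreted binding protein that insulin represses, at 30.7 and 72.7. The factors best known for driving Pck1 and G6pc moved less. Foxo1 was at 11.1 and 13.7 FPKM, the coactivator Ppargc1a at 1.60 and 1.27, and Hnf4a at 162 and 105. In all, 65 of the 69 other pathway genes were measured in liver, of which 10 were over 2-fold higher and 1 lower, the lactate and pyruvate carrier Slc16a1 at 19.5 and 6.01 FPKM.

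**Figure D3:**
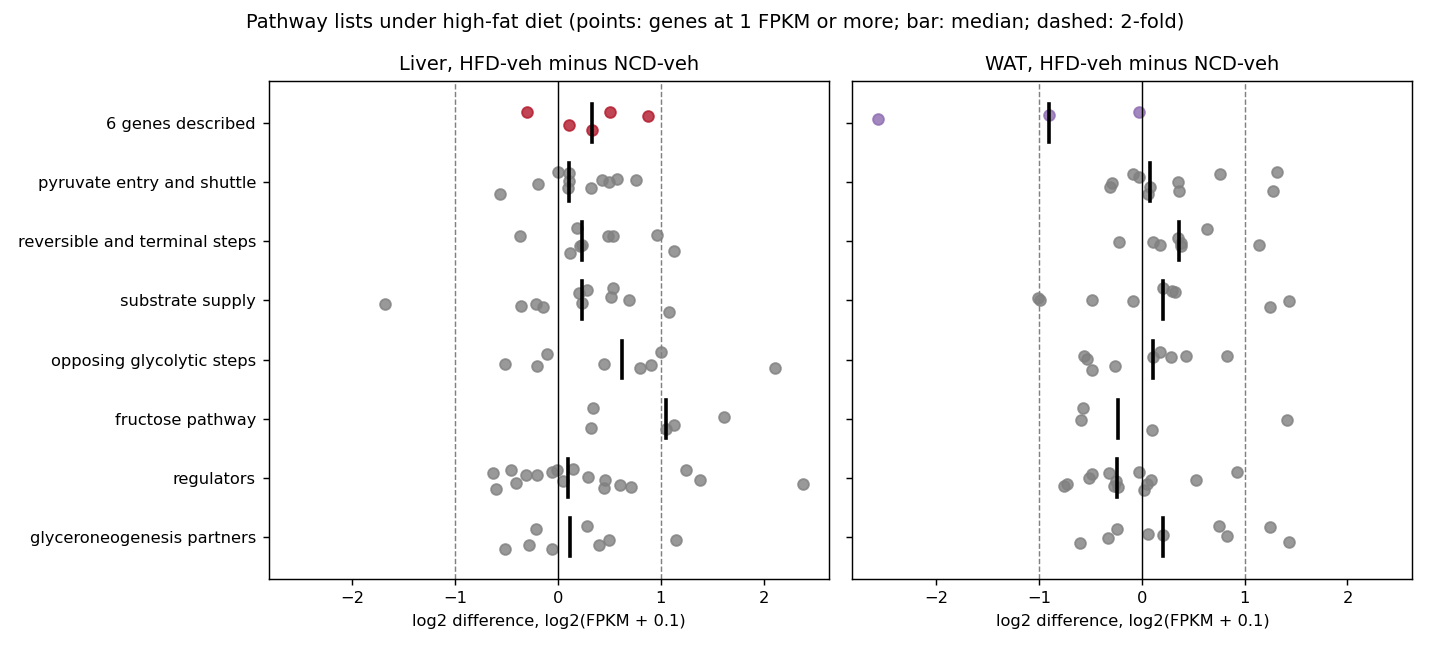
Log2 difference (HFD-veh minus NCD-veh, log2(FPKM + 0.1) scale) of the 6 genes and the genes of 7 pathway lists at 1 FPKM or more in either library (marker lists are not plotted), in liver (left) and WAT (right), with a bar at each list's median and dashed lines at 2-fold. In liver the opposing glycolytic steps (median 0.62) and the fructose pathway (1.05) have the highest medians of the lists plotted, and in WAT Pck1 (-2.57) lies left of the other points plotted.

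In BAT, Fbp2 was higher in HFD-veh than in NCD-veh mice by 0.53 and Pcx lower by 0.47, while Pck1 (0.18) and Khk (-0.24) were within 0.25 on the log2 scale. None passed 2-fold. Of 57 measured pathway genes, 2 were over 2-fold higher in HFD-veh BAT (Akr1b3 and Sik1) and none lower.

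In muscle, Pck1 was 2.59-fold higher in HFD-veh than in NCD-veh mice (log2 difference 1.35), and G6pc and Fbp1, at or near 0 in NCD-veh, reached 2.68 and 4.94 FPKM. Fbp2, the gene with the highest level of the 6 there, was lower by 0.56, Pcx was lower by 0.39 and Khk higher by 0.47. In NCD-veh mice the genes past 2-fold had far higher levels in liver, at 161 FPKM for G6pc, 471 for Fbp1 and 1048 for Pck1. Pck1, unlike the others, was above 1 FPKM in NCD-veh muscle, at 4.89. In HFD-veh muscle G6pc was at 0.906% and Fbp1 at 0.837% of its level in HFD-veh liver, against a median of 0.568% and a range of 0.331% to 0.769% for the 20 liver markers. Khk was at 2.64% and Pck1 at 1.49%. Shares also differed among liver-expressed genes outside the marker list. Pklr, Sds and Aqp9 were at 1.23, 1.09 and 1.09 FPKM in HFD-veh muscle and at 119, 118 and 163 in HFD-veh liver.

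After subtracting the median marker share of the liver value, HFD-veh muscle would hold 1.00 FPKM of G6pc, 1.59 of Fbp1, 7.59 of Khk and 7.82 of Pck1. Pck1 would then be 0.67 higher on the log2 scale than in NCD-veh muscle, under 2-fold, and Khk 0.12 higher. G6pc (3.46) and Fbp1 (3.83) would still be over 2-fold higher, by amounts that depend on the pseudocount. Both remainders also depend on the share subtracted, since single markers reached 0.769%, and that of G6pc is at the edge of the 1 FPKM required. Whether any G6pc or Fbp1 beyond liver transcripts is present in this library was not tested. The adipocyte markers in muscle, at medians of 0.596%, 2.003% and 0.892% of WAT (NCD-veh first, HFD-ncls last) and sums of 349, 397 and 388 FPKM, were also highest in HFD-veh by either measure. Pck1 was 0.584%, 8.96% and 4.04% of its WAT level in these libraries. That WAT level was itself 836, 141 and 146 FPKM, so the shares follow the level in WAT as well as that in muscle. The part of fat transcripts in the muscle difference of Pck1 was not tested.

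Other pathway genes in muscle included both liver-expressed and muscle-expressed ones. Of 58 measured, 7 were over 2-fold higher in HFD-veh mice (Agpat2, Akr1b3, Aqp9, Dak, Pklr, Sds and Tat) and 2 were lower. The lower ones were Pdk4, which holds pyruvate back from oxidation, at 404 and 122 FPKM, and Pfkfb3, a regulator of phosphofructokinase, at 143 and 45.6 FPKM.

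**Figure D4:**
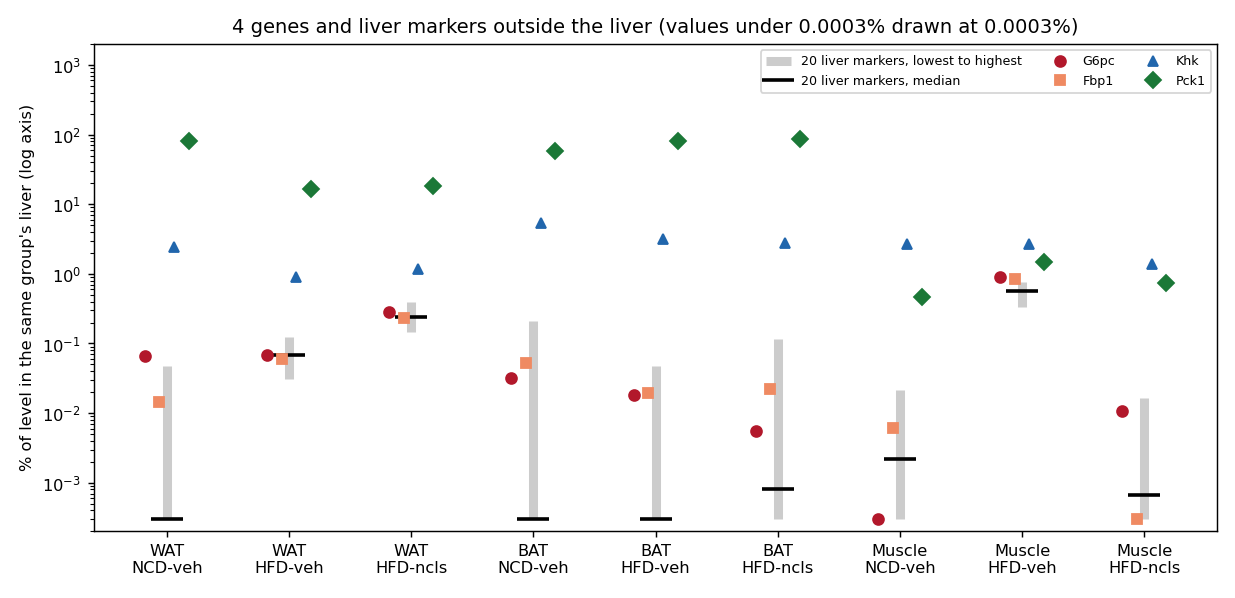
Level of 4 genes in each library outside the liver as a percentage of the level in the liver of the same group (log axis), with the range (grey) and median (black) of 20 liver markers. G6pc and Fbp1 sit at 0.906% and 0.837% in HFD-veh muscle, just above the 0.331% to 0.769% of these 20 markers. In both HFD WAT libraries they sit within the marker range, while Pck1 in fat and Khk in every library sit above the markers. Other liver genes are not drawn.

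The second comparison sets HFD-ncls against HFD-veh mice and asks what narciclasine changed under the diet. It shares the HFD-veh libraries with the first, so a value that is unusual in such a library enters both with opposite sign. Of the 24 combinations, 20 were measured, 1 was over 2-fold higher (Fbp1 in WAT) and 3 were over 2-fold lower (Pck1, G6pc and Fbp1 in muscle). Among all genes measured, 1.70% were past 2-fold in WAT, 1.96% in BAT, 2.31% in liver and 3.80% in muscle.

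In liver, the organ in which 4 of the 6 genes had their highest median, the differences with narciclasine were small. G6pc was higher by 0.13, Fbp1 by 0.12 and Khk by 0.12, Pcx was at -0.02 and Pck1 at -0.09, all within 0.25 on the log2 scale. Of 64 measured pathway genes, 1 was over 2-fold higher in HFD-ncls liver, Igfbp1 at 72.7 and 162 FPKM, and none was lower. Pklr was at 119 and 159 FPKM and Srebf1 at 69.9 and 95.0, each a difference in the direction of the diet and short of 2-fold.

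In WAT, Pck1 was nearly level, with 141 FPKM for vehicle and 146 for narciclasine (log2 difference 0.05). Relative to Adipoq it was 0.0834 and 0.0910. Pcx was lower by 0.26 and Khk higher by 0.50, and Fbp2 was at 0.744 and 1.09 FPKM. Fbp1 went from 0.353 to 1.47 FPKM, a log2 difference of 1.80 that makes it the single gene past 2-fold, and G6pc from 0.199 to 0.921 FPKM, under the level required. In HFD-ncls WAT G6pc was at 0.286% and Fbp1 at 0.230% of the liver level, within the 0.148% to 0.400% of the 20 liver markers, and the median share of 0.238% subtracted would leave 0.154 FPKM of G6pc and 0 of Fbp1. Sik1 and Tat were over 2-fold higher among 59 measured pathway genes, and Akr1b3 was lower, at 4.27 and 1.17 FPKM.

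In BAT the 4 measured genes of the 6 lay between -0.30 (Fbp2) and 0.04 (Pcx), with Pck1 at 0.02. Of 57 pathway genes, Eno1 and Slc25a12 were over 2-fold lower in HFD-ncls BAT and none was higher. Muscle markers there summed to 1055 FPKM with vehicle and 188 with narciclasine.

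In muscle, Pck1 was 2.15-fold lower with narciclasine than with vehicle (log2 difference -1.09), and G6pc and Fbp1 were at 0.0349 FPKM and a listed 0. Fbp2 was higher by 0.59 and Khk lower by 0.79, while Pcx was level at -0.01. Except for Pcx, levels in HFD-ncls muscle were then nearer to those in NCD-veh muscle, where the liver markers were also low, than to those in HFD-veh muscle. Against NCD-veh, Pck1 was at 5.89 FPKM against 4.89, Khk at 5.55 against 6.97, Fbp2 at 40.9 against 39.9 and Pcx at 16.5 against 21.7. With the liver share subtracted from the HFD-veh library, Pck1 would be lower by 0.40 and Khk by 0.44. G6pc (-3.05) and Fbp1 (-4.08) would still be over 2-fold lower, by amounts that depend on the pseudocount and on the share subtracted. Of 59 measured pathway genes, 3 were over 2-fold higher in HFD-ncls muscle, namely Pdk4 at 122 and 415 FPKM, Pfkfb3 at 45.6 and 95.4 and Gpam at 15.6 and 33.2. A further 5 were lower (Aqp9, Dak, Pklr, Sds and Tat), each also among the genes higher in HFD-veh than in NCD-veh muscle. Tat is one of the 20 liver markers, and the part of liver transcripts in these differences was not tested.

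**Figure D5:**
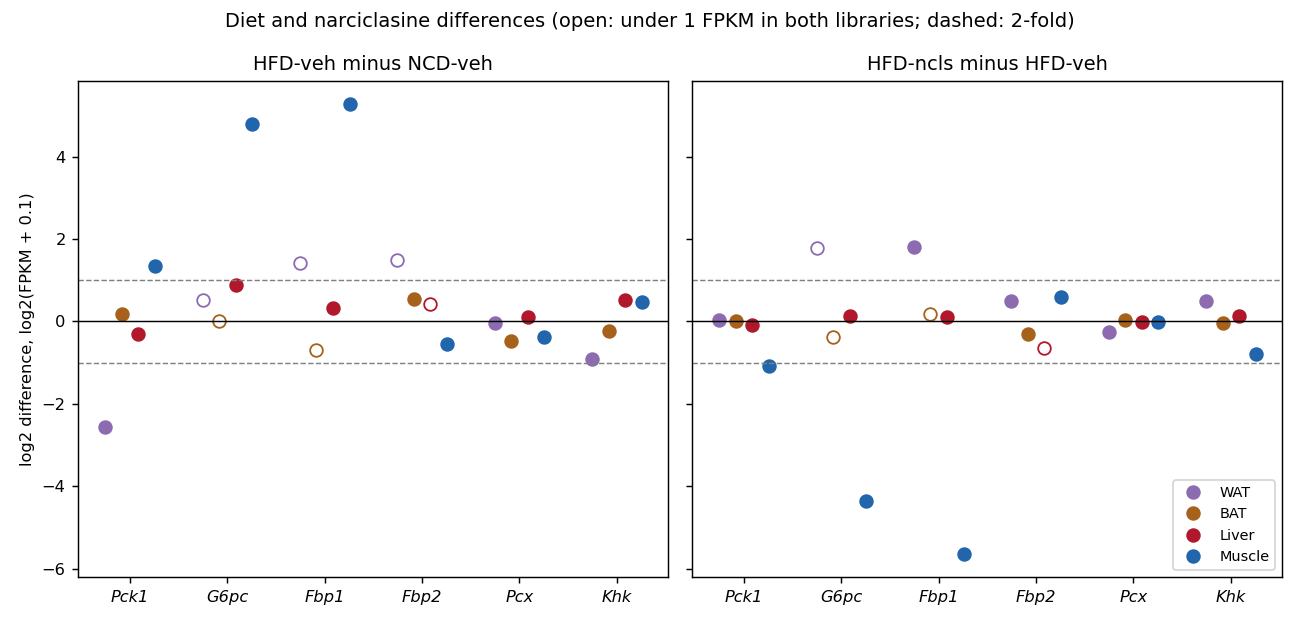
Log2 difference of each gene by organ (colour) for HFD-veh minus NCD-veh (left) and HFD-ncls minus HFD-veh (right), on the log2(FPKM + 0.1) scale, 1 pair of libraries per point. Pck1 in WAT (-2.57) is the low point on the left, and the high muscle points of G6pc, Fbp1 and Pck1 on the left return below zero on the right, where both panels share the HFD-veh library. The size of the G6pc and Fbp1 muscle points depends on the pseudocount because a library is at or near 0.

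The genes most like each of the 6 across the 12 libraries were found by Pearson's r of log2(FPKM + 0.1) among 7485 genes with at least 10 FPKM in any library, as a description in which organ differences weigh most. For Pck1 they were Gstt2 (0.985), Ces1d (0.985) and Agpat6 (0.978). For G6pc they included Elovl2 (0.998) and Rgn (0.998), and for Fbp1 Azgp1 (0.998), Hsd17b13 (0.997) and Asgr1 (0.997). For Fbp2 they were 2310042D19Rik (0.981), Pitpnc1 (0.976) and Pde4d (0.975). For Pcx they were Ankrd46 (0.991), Slc30a5 (0.990) and Vps4b (0.990), and for Khk Car8 (0.993), Amacr (0.991) and Epb4.1l4b (0.989). Among the 6 genes themselves, G6pc and Fbp1 were most alike (0.995), and r with G6pc was 0.920 for Khk, 0.393 for Pck1, 0.233 for Pcx and -0.698 for Fbp2.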

How the data were processed

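The authors aligned the reads to mm9 with TopHat and deposited 1 FPKM value per RefSeq gene symbol and library, made with Cufflinks. FPKM is not a count, so no count test was run, and with 1 library per organ and group no test within an organ was possible. An effect shared by all organs was not tested. Values absent in a library were left out for that organ (86 of 22276 symbols lacked a value in at least 1 library). Differences were taken on log2(FPKM + 0.1) for genes with at least 1 FPKM in either library, and a difference over 2-fold was counted. The pseudocount understates changes of low genes. Depth was estimated from FPKM steps and transcript lengths of 4923 genes with a single transcript and is approximate. The 6 genes were named in all libraries, list genes where past 2-fold or as examples of their list, and for each of the 6 the 3 genes with the highest r. The members and lists were chosen with earlier results of these data known. Some examples were picked after their values were seen. The liver share of a library was the median, over 20 markers, of its FPKM as a percentage of the same group's liver. Gene positions come from GENCODE M1 on mm9, and promoters from RefSeq on GRCm38.p6. Python 3.11.15, numpy 2.4.6, pandas 2.3.3, biopython 1.88 and matplotlib 3.10.9 were used, and the steps were tested on simulated data. Alternatives covered the pseudocount, the filter, rescaling by the median ratio, a 1.4-fold threshold, the liver share and, added after seeing the data, leaving out libraries. Some genes of the pathway lists and of the most alike genes are not reported here.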

Additional observations from a re-analysis of the deposited data

Results flagged for a closer look

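In 5 cases a gene was past 1.4-fold in opposite directions in a pair of organs under the same contrast. With 1 library per organ and group, none of these differences was tested. Values are the gap between the organs' log2 differences. Pck1 under the diet was higher in muscle and lower in WAT, a gap of 3.92. Subtracting the liver share brings the muscle difference from 1.35 to 0.67, while the WAT difference stays at -2.57. Fbp2 under the diet was higher in BAT and lower in muscle, a gap of 1.09. Khk under the diet was higher in liver and lower in WAT, a gap of 1.41 that becomes 1.52 with the liver share subtracted. With narciclasine Khk was higher in WAT and lower in muscle, a gap of 1.29. With the liver share subtracted Khk is at 0.30 in WAT and -0.44 in muscle, both within 1.4-fold, and the gap is 0.74. Fbp1 with narciclasine was higher in WAT and lower in muscle, a gap of 7.45 whose size depends on the pseudocount because HFD-ncls muscle is listed at 0. With the liver share subtracted the WAT difference is 0, so the directions are no longer opposite. Both libraries in which Fbp1 was high, HFD-ncls WAT and HFD-veh muscle, hold the 20 liver markers at medians of 0.238% and 0.568% of liver.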

How the results depend on the processing

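The count of genes and organs past 2-fold under the diet, 4, became 2 with at least 5 FPKM required, 9 at a 1.4-fold threshold and 1 (Pck1 in WAT) with muscle left out. It stayed at 4 with a pseudocount of 1 or 0.01, after rescaling and with the liver share subtracted, although in the last case Khk in WAT (-1.01) replaced Pck1 in muscle. The count with narciclasine, also 4, became 2 with a pseudocount of 1, 1 with at least 5 FPKM, 2 with the liver share subtracted, 8 at 1.4-fold, 1 with muscle left out and 0 with muscle and WAT left out. Pck1 in muscle was -0.99 with a pseudocount of 1 and -0.40 with the liver share subtracted. The counts with the liver share subtracted use the median share, at which G6pc in HFD-veh muscle is at 1.00 FPKM, the edge of the filter. Leaving out the filter gave 6 and 5. The count of genes highest in liver ranged from 3 to 4, since Pck1 joins them after rescaling or without the NCD-veh or the HFD-ncls libraries. Of 152 recomputed single differences, 134 stayed within 0.25 of the value given and 18 moved further, 9 of them with the liver share subtracted. The sign changed for 1, Pcx in muscle with narciclasine, which went from -0.01 to 0.05 with the liver share subtracted. Rescaling moved the median of all genes by less than 0.1. With no replicates, 2-fold is a description of library pairs, and values at a few fragments carry large counting error.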

Other observations

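The remaining steps of the pathway are given here beside the share of all genes past 2-fold under the diet, 5.12% in liver and 9.11% in WAT. In liver, none of the 11 genes of pyruvate entry and the mitochondrial shuttles was past 2-fold in HFD-veh against NCD-veh mice (median log2 difference 0.11). The pyruvate carrier subunit Mpc1 was at 50.9 FPKM on chow and 86.1 in HFD-veh liver, and the malate dehydrogenase Mdh1 at 153 and 216. Of the 9 reversible and terminal steps 1 was higher (median 0.23), with the glucose-6-phosphate carrier Slc37a4, which feeds G6pc, at 70.7 and 103 FPKM. Of 11 measured genes of substrate supply 1 was higher and 1 lower (median 0.24), and of 8 measured partners of glyceroneogenesis 1 was higher (median 0.11).

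In WAT, 2 of 11 genes of pyruvate entry were higher on the diet (median 0.08), 1 of 8 reversible and terminal steps (0.37), 2 of 9 genes of substrate supply with 1 lower (0.20), and 1 of 4 fructose genes (-0.23). None of 9 opposing glycolytic genes (0.11) or 14 regulators (-0.24) was past 2-fold. In BAT, the 57 measured pathway genes had a median of -0.18 in HFD-ncls against HFD-veh mice, where the median of all genes was -0.02. Muscle markers were lower in the same comparison, with 12 of 13 past 2-fold and a median of -2.77, and their part in the pathway median was not tested.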
